A study of Mus musculus with 20 samples.

Results

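The 16 libraries from high-fat-fed mice were ordered by the level of Fasn, the gene of fatty acid synthase. The level was its CPM, the rate of its counts over the total of the library. Members were chosen by this measured value alone. The 5 libraries with most Fasn were set against the 5 with least, whatever their day, so 10 of the 16 high-fat libraries and of 20 libraries in all are compared. All samples were epididymal fat, the pad beside the testis, from male C57BL6/J mice, an inbred laboratory strain. The high-fat groups had left chow for a diet high in fat 2, 4, 6 or 14 days earlier, and the chow group was the day 0 control, with 4 libraries in each of the 5 groups. The age of the mice, the fat content of the diet and whether the mice were fed or fasted at collection are not given in the sources used here. The design text calls the libraries biological replicates without saying whether each is 1 animal, so p-values measure the spread between these libraries.

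Fatty acid synthase builds palmitate from acetyl-CoA and malonyl-CoA, with NADPH as the reductant. Cytosolic acetyl-CoA comes mainly from citrate through ATP citrate lyase, and acetyl-CoA carboxylase makes the malonyl-CoA. In fat and liver the genes of this pathway are known to be induced together by insulin and glucose, through the transcription factors SREBP-1c and ChREBP, and to be low in fasting.

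The 5 libraries with most Fasn were, from the highest down, day 2 replicate 4, day 4 replicate 4, day 6 replicate 3, day 4 replicate 1 and day 2 replicate 1. Fasn was at 11160.3, 11104, 10961, 10374 and 10320.2 CPM in them. The 5 with least were day 6 replicate 2, day 14 replicate 4, day 14 replicate 1, day 2 replicate 2 and day 14 replicate 2, with 3630.4, 3272, 2476, 2295 and 2135 CPM. Day 4 replicate 3 lay just outside the upper set with 10019.9 and day 6 replicate 1 just outside the lower set with 4466 CPM. The gap between the upper set and its neighbour was thus small, while the 6 libraries in the middle covered the range between. The 4 chow libraries had 15893, 7015, 8599 and 8466 CPM, above all 5 libraries with least Fasn.

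The sets differed in their days. The upper set held 2 libraries of day 2, 2 of day 4, 1 of day 6 and 0 of day 14, and the lower set held 1, 0, 1 and 3. Differences between the sets and differences between early and late feeding therefore cannot be told apart in full, and differences within day 2 and within day 6 are given for the lists and genes that the results turn on. Within day 2 the 2 libraries with most Fasn stood against 1 with least, and within day 6 there was 1 of each, with no replicate check. Total counts were 1916829 to 16274913 in the upper set and 6724707 to 26809665 in the lower one, and day 2 replicate 1, in the upper set, had the smallest total of the series. Mitochondrially encoded RNA took 4.26 to 6.44% of the counts with most Fasn and 4.05 to 7.13% with least.

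**Figure D1:**
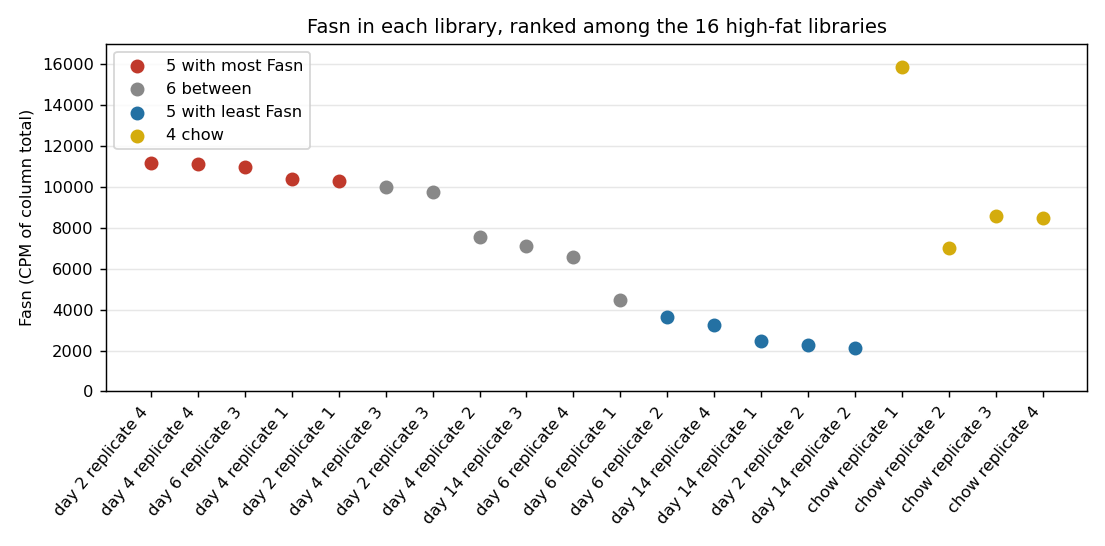
Fasn CPM over the library total (vertical axis) in the 16 high-fat libraries, ordered from most to least, and in the 4 chow libraries; colours mark the 2 sets of 5 and the 6 libraries between them. The upper set sits between 10320.2 and 11160.3 and the lower set between 2135 and 3630.4, with 3 of the 4 day 14 libraries in the lower set.

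From here on CPM are taken over totals adjusted by TMM (edgeR's scaling of library totals), and values within a set are listed in the order of libraries given above. A difference is the mean log2 CPM with most Fasn minus that with least. Since Fasn chose the sets and every gene comes from the same libraries, differences between the sets are a description and carry no test. A gene was counted as non-overlapping where all 5 libraries of 1 set lay above all 5 of the other. Of 15254 genes with enough counts, 997 were non-overlapping and higher with most Fasn (6.54%) and 824 non-overlapping and lower (5.40%), and the median difference of all genes was -0.03. On this scale Fasn averaged 11072 ± 406 CPM with most Fasn and 2805 ± 775 CPM with least (SD, n = 5 each), a difference of 2.02.

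The promoters of Fasn, Acly and Insig1 are shown because these genes stand for the fatty acid branch and the SREBP-regulated genes among those higher with most Fasn. Each is 250 bases before and 50 bases after the start, from RefSeq on GRCm38.p6, written 5′ to 3′ on the gene's strand. Fasn lies at chr11:120824498-120824797 (minus strand), Acly at chr11:100527951-100528250 (minus) and Insig1 at chr5:28071162-28071461 (plus). Capitals mark CCAAT, the letters bound by NF-Y, a factor known to work beside SREBP, and CACGTG, an E-box, on either strand.
Fasn: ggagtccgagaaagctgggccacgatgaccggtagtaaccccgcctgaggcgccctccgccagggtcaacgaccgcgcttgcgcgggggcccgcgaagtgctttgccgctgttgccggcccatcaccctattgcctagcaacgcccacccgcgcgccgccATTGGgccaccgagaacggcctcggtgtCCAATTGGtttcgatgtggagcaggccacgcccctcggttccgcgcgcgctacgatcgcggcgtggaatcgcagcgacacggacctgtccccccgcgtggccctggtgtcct
Acly: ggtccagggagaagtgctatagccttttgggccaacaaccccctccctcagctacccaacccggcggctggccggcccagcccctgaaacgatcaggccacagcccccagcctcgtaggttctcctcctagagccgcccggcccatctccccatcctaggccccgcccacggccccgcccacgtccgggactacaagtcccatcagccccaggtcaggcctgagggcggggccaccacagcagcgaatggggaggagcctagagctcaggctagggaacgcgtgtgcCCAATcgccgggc
Insig1: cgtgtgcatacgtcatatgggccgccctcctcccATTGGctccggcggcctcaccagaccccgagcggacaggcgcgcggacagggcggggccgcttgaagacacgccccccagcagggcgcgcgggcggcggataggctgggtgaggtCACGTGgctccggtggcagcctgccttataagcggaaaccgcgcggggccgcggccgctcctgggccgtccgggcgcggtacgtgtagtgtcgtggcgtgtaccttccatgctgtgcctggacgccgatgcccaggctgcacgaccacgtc
The Fasn window held 3 matches to CCAAT, 2 of which overlap in opposite directions. Acly held 1, and Insig1 held 1 beside 1 match to CACGTG in its window. On either strand, CCAAT occurred in 9 of 15 windows of the lipogenic enzymes (60.0%, 14 genes with a window) and in 15 of 18 windows of the cholesterol genes (83.3%, 15 genes), against 37.4% of all 32851 windows. CACGTG occurred in 2 of 15 and 3 of 18 of these windows, against 7.15% of all. The lipogenic genes with CCAAT were Fasn, Acly, Acss2, Me1 and Slc25a1, and also Acacb, Elovl5, Pnpla3 and Thrsp, whose sets overlapped. These counts describe letters in a fixed window only.

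Core enzymes of the palmitate pathway lay higher with most Fasn. Of the 16 other lipogenic enzymes and cofactors, all of which had enough counts, 8 were non-overlapping and higher with most Fasn and 0 were lower. Their median difference was 0.77, and within single days their median was 0.64 on day 2 and 0.72 on day 6. Acly, ATP citrate lyase, measured 1078, 1431, 1314, 1054 and 829 CPM with most Fasn, against 457, 504, 354, 295 and 388 CPM with least. The difference was 1.51, or 1.68 within day 2 and 1.52 within day 6. Acaca, the cytosolic acetyl-CoA carboxylase, measured 1310.0, 821, 1309.6, 1237 and 1340.5 CPM with most Fasn and 434, 741, 381, 513 and 522 CPM with least, a difference of 1.23 in which day 4 replicate 4 lay well below the other 4 of its set.

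The enzymes that feed acetyl units and electrons to the pathway had some of the largest differences. Acss2, which activates acetate, measured 488, 934, 399, 348 and 432 CPM with most Fasn, against 176, 183, 98.1, 105 and 114 CPM with least, a difference of 1.90. Me1, the malic enzyme that yields NADPH, measured 1947, 1833, 1154, 1377 and 1567 CPM with most Fasn, against 689, 709, 351, 463 and 382 CPM with least, a difference of 1.64. For both genes the lowest library with most Fasn lay well above the highest with least. Slc25a1, the carrier that exports citrate from mitochondria, had a difference of 1.09, and Mid1ip1, which promotes acetyl-CoA carboxylase assembly, one of 1.48. The day 6 pair differed less for these genes. Acss2 differed by 2.13 within day 2 and 1.18 within day 6, Me1 by 1.91 within day 2 and 0.74 within day 6, Slc25a1 by 0.91 within day 2 and 0.65 within day 6 and Mid1ip1 by 1.56 within day 2 and 1.07 within day 6.

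Enzymes that modify palmitate did not vary alike. Elovl6, which lengthens it to stearate, measured 105, 111, 92.6, 99.7 and 80.3 CPM with most Fasn and 42.8, 41.5, 33.5, 30.3 and 30.6 CPM with least, a difference of 1.45. Scd2, a desaturase of saturated fatty acids, measured 1819, 2916, 1223, 1347 and 1855 CPM with most Fasn, against 541, 634, 434, 386 and 397 CPM with least, a difference of 1.89. Its close relative Scd1 measured 42704, 63575, 53242, 45922 and 73235 CPM with most Fasn and 34841, 73312, 38558, 56109 and 44881 CPM with least. The Scd1 values of the sets overlapped, with a difference of 0.19. The polyunsaturated fatty acid desaturases Fads1 (0.12) and Fads2 (0.27) and the elongase Elovl5 (-0.10) overlapped too. Acacb, the mitochondrial acetyl-CoA carboxylase that limits fatty acid oxidation, overlapped with a difference of -0.31, as did Thrsp (0.46), Pnpla3 (0.38) and Aacs (0.27). Elovl6 differed by 1.59 within day 2 and 1.11 within day 6, Scd2 by 2.25 within day 2 and 1.18 within day 6 and Scd1 by -0.00 within day 2 and 0.61 within day 6.

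**Figure D2:**
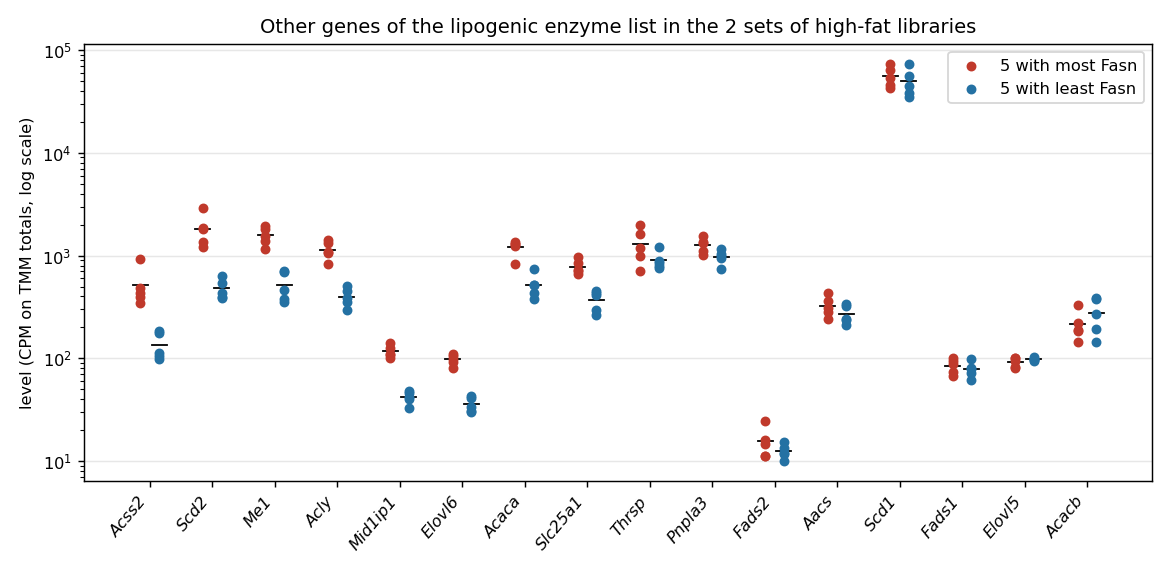
CPM over TMM totals (log axis) of the 16 other lipogenic enzyme genes, 1 point for each library of the 5 with most Fasn (red, left of each pair) and the 5 with least (blue, right), with a bar at the mean. The 8 genes on the left, from Acss2 to Slc25a1, do not overlap between the sets, while the 8 on the right do, Scd1 among them.

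The regulators of lipogenesis had smaller differences than the enzymes. Of 19 regulators 4 were non-overlapping and higher, 0 were lower, and the median difference was 0.11. Srebf1, which encodes SREBP-1, averaged 655 ± 96.6 CPM with most Fasn and 510.3 ± 78.3 CPM with least (SD, n = 5 each). Its sets overlapped, with a difference of 0.36. Mlxipl, which encodes ChREBP, measured 162, 131, 173, 180.5 and 217 CPM with most Fasn and 113, 165, 153, 181 and 129.5 CPM with least, a difference of 0.22 in which the sets again overlapped. Counts per gene do not separate the isoforms of these factors or show their processing. Mlx, the dimer partner of ChREBP, averaged 42.3 ± 5.93 CPM with most Fasn and 24.7 ± 2.95 CPM with least (SD, n = 5 each) without overlap.

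Insig1 was the regulator with the largest difference. It holds SREBP in the endoplasmic reticulum and is itself an SREBP target. It measured 780.0, 1284, 585, 673 and 567 CPM with most Fasn, against 253, 238, 175, 128 and 177 CPM with least, and the difference was 1.97, or 2.38 within day 2 and 1.21 within day 6. In the 4 chow libraries Insig1 measured 208, 85.7, 119.9 and 77.2 CPM, within or below the range of the set with least Fasn, although chow libraries had more Fasn than that set. Nr1h3 (LXR alpha, a sterol-sensing receptor; 0.30) and Prkaa2 (a catalytic subunit of the energy sensor AMPK; 0.63) were the others without overlap. Within day 2 the regulators' median difference was 0.06, and within day 6 it was 0.09.

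Cholesterol genes lay higher with most Fasn as a group. The cholesterol pathway draws on the same cytosolic acetyl-CoA, and its genes are classic targets of SREBP-2. Of 23 genes of cholesterol synthesis and uptake, 17 were non-overlapping and higher with most Fasn, 0 were lower and all 23 had a positive difference, with a median of 1.15. The median was 1.28 within day 2 and 0.86 within day 6. Cyp51, which removes a methyl group from lanosterol, measured 113, 175, 83.3, 78.8 and 86.2 CPM with most Fasn, against 34.9, 54.5, 30.4, 28.4 and 29.6 CPM with least, a difference of 1.57. No library of 1 set lay inside the range of the other. The synthesis enzymes Nsdhl (1.51) and Fdps (1.50) were also among those with the largest differences.

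Hmgcs1, the cytosolic HMG-CoA synthase, had the order of libraries most like that of Fasn. Its Spearman correlation with Fasn over the 16 high-fat libraries was 0.976, given as a description. It measured 845, 821, 727, 715 and 683 CPM with most Fasn and 331, 494, 359.7, 283 and 238 CPM with least. Also among the 5 highest were Cox10 (0.965), which takes part in making heme A for cytochrome oxidase, Rilpl2 (0.959), known from ciliary transport, and Pmm1 (0.956), a phosphomannomutase. They were picked among all genes that averaged 5 CPM or more.

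Supply routes to lipogenesis also lay higher with most Fasn. Of 10 genes of NADPH supply, 6 were non-overlapping and higher and 2 lower, with a median difference of 0.52. Within single days the median was 0.46 within day 2 and 0.20 within day 6. The pentose phosphate enzymes Pgd (0.91), Rpia (1.01) and Tkt (0.64) were higher. H6pd, the related dehydrogenase of the endoplasmic reticulum, was lower at -1.08 and averaged 397 ± 71.3 CPM with most Fasn and 832 ± 97.2 CPM with least (SD, n = 5 each). Of 19 genes of glucose uptake and glycolysis, 8 were non-overlapping and higher and 0 lower, with a median difference of 0.54, or 0.51 within day 2 and 0.21 within day 6. Among them were the phosphofructokinases Pfkp (0.89) and Pfkl (0.76), Tpi1 (0.78) and Gapdh (0.72). Pfkp differed by 1.04 within day 2 and 0.97 within day 6, but Gapdh by 0.85 and 0.24, and Tpi1 by 0.81 and 0.00279.

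Pyruvate and citrate genes were higher in number but depended on how libraries were ranked. Of 29 genes 12 were non-overlapping and higher and 1 was lower, with a median difference of 0.38, or 0.28 within day 2 and 0.17 within day 6. When the ranking used 5 other lipogenic enzymes in place of Fasn, or left out day 2 replicate 1, 6 of the 29 were non-overlapping and higher. Mpc2, of the mitochondrial pyruvate carrier, had a difference of 1.04, Dlat and Pdhb of the pyruvate dehydrogenase complex 0.74 and 0.68, and Idh3a of the citrate cycle 0.68. All 42 nuclear genes of oxidative phosphorylation had a positive difference with a median of 0.31, or 0.16 within day 2 and 0.14 within day 6. Of these 11 were non-overlapping, or 4 when the ranking left out day 2 replicate 1, and among the 11 were Cycs (0.78), Atp5g3 (0.68) and Cyc1 (0.58). The 15 mitochondrially encoded RNAs had 0 non-overlapping genes and a median of 0.02. Within days their median was negative, -0.18 within day 2 and -0.25 within day 6, and 13 of the 15 were lower with most Fasn on both days.

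Triglyceride synthesis, which stores the new fatty acids, had genes that differed in opposite directions. Of 19 genes of fatty acid uptake and triglyceride synthesis 6 were non-overlapping and higher and 2 lower, with a median difference of 0.22, or 0.16 within day 2 and 0.03 within day 6. Agpat2, which adds the second acyl chain, measured 2257, 1829, 1754, 1769 and 2086 CPM with most Fasn, against 776, 961, 614, 789.6 and 509 CPM with least. Gpd1, which makes glycerol 3-phosphate from a glycolytic intermediate, measured 2234, 1935, 2019, 1907 and 2084 CPM with most Fasn and 1359, 997, 751, 995 and 775 CPM with least. Both were higher without overlap, by 1.44 and 1.09. Within day 2 these differences were 1.46 and 1.12, and within day 6 they were 1.18 and 0.57. Pck1, which makes glycerol 3-phosphate from pyruvate in fat and is induced in fasting, lay the other way. It measured 917, 493, 1026, 969 and 1263 CPM with most Fasn, against 2201, 1923, 2024, 2301 and 2333 CPM with least, a difference of -1.27, or -1.10 within day 2 and -1.10 within day 6. The fatty acid binding protein Fabp5 was higher by 1.06 and the lipoprotein lipase Lpl by 0.59.

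Genes of fat breakdown lay in both directions. Among 19 lipolysis and droplet genes 2 were non-overlapping and higher and 2 lower, beside 6.54% and 5.40% of all genes. The median difference of the 19 was 0.02, or 0.01 within day 2 and -0.05 within day 6. Plin2, a droplet coat protein, was higher by 0.75, and G0s2, an inhibitor of the lipase ATGL, by 0.50. Pnpla2, which encodes ATGL, averaged 1393 ± 409.6 CPM with most Fasn and 2689.8 ± 367 CPM with least (SD, n = 5 each), a difference of -0.99. Adrb3, the adrenergic receptor that starts lipolysis in mouse fat, averaged 653 ± 244 CPM with most Fasn and 1157 ± 176 CPM with least (SD, n = 5 each). Of 21 genes of fatty acid oxidation 17 had a positive difference and 1 was non-overlapping, Hadha, with a difference of 0.36. The median of the 21 was 0.24, or 0.07 within day 2 and 0.06 within day 6.

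Among non-overlapping genes that averaged 5 CPM or more, clone names passed over, the largest differences upward were Angptl8, Hephl1, Ppp1r3b, Gys2, Ncan, Fasn, Bpifb6, Insig1, Acss2 and Scd2. Angptl8, a secreted inhibitor of lipoprotein lipase that is induced by feeding, measured 243, 164, 56.1, 123 and 113 CPM with most Fasn, against 33.3, 11.2, 8.84, 6.06 and 5.94 CPM with least. The ratio of the means was 10.7, and the difference was 3.58, or 4.75 within day 2 and 0.75 within day 6. In the 4 chow libraries Angptl8 measured 29.2, 6.50, 8.24 and 18.1 CPM, all below the lowest library with most Fasn.

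A pair of the largest differences belongs to glycogen metabolism. Gys2, glycogen synthase of the liver type, measured 43.4, 45.9, 37.1, 48.8 and 31.8 CPM with most Fasn, against 4.69 to 26.5 CPM with least. Ppp1r3b, which brings protein phosphatase 1 to glycogen, measured 56.8, 113, 52.8, 85.1 and 32.3 CPM with most Fasn, against 16.9, 16.2, 15.3, 6.77 and 10.3 CPM with least. Neither overlapped, and the differences were 2.08 and 2.32. Gys2 differed by 2.47 within day 2 and 0.49 within day 6, and Ppp1r3b by 2.64 within day 2 and 1.64 within day 6. Hephl1, a copper-dependent ferroxidase, differed by 2.43 (2.40 within day 2 and 0.82 within day 6), and the proteoglycan gene Ncan by 2.06 (2.30 within day 2 and 1.50 within day 6). Bpifb6, of a family of lipid-binding proteins, differed by 1.98 (1.89 within day 2 and 2.29 within day 6).

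By the same rule the 10 largest differences downward included Vnn1, Nnat, St6galnac5, Net1, Chrdl1, Sctr, Smyd1, Mt2 and Cyp2f2. Vnn1, a pantetheinase, measured 0.817, 0.392, 4.46, 5.59 and 0.539 CPM with most Fasn, against 6.95, 16.8, 12.1, 18.9 and 26.1 CPM with least, a difference of -3.29, or -4.60 within day 2 and -0.63 within day 6. Nnat, the imprinted gene of the membrane protein neuronatin, measured 152, 49.6, 692, 550.0 and 144 CPM with most Fasn, against 1550.1, 1284, 2444, 1659 and 2372 CPM with least. Its ratio of means was 5.86 in favour of the set with least Fasn, and the difference was -3.49 within day 2 and -1.16 within day 6. Mt2, a metallothionein, averaged 16.5 ± 5.06 CPM with most Fasn and 64.0 ± 28.1 CPM with least (SD, n = 5 each), and differed by -1.56 within day 2 and -1.16 within day 6. The other 6 of these had differences from -2.29 for the sialyltransferase St6galnac5 to -1.87 for the cytochrome Cyp2f2.

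**Figure D3:**
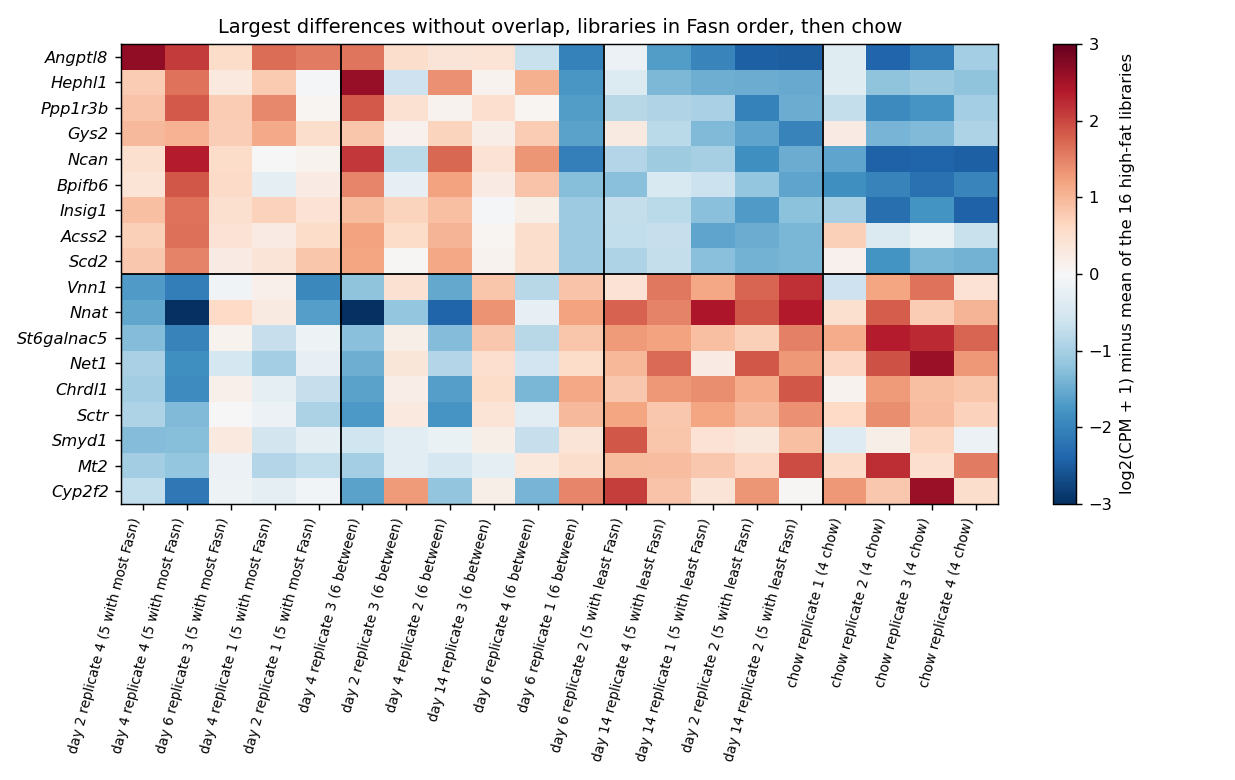
Heat map of 9 of the 10 largest non-overlapping differences in each direction (rows, Fasn itself left out) in the 20 libraries (columns: most Fasn, the 6 between, least Fasn, chow); colour is log2(CPM + 1) minus the mean of the 16 high-fat libraries, red higher and blue lower. The upper rows are mostly red with most Fasn and blue with least, and the lower rows the reverse, with day 2 replicate 4 highest for Angptl8 and the chow libraries nearer the set with least Fasn in most rows.

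Genes listed as responsive to fasting or to FoxO factors mostly lay lower with most Fasn. Of 19 such genes 5 were non-overlapping and lower and 0 higher, with a median difference of -0.41. The median was -0.36 within day 2 and -0.13 within day 6, and -0.13 after centring on days. Irs2, the insulin receptor substrate that insulin represses, measured 29.2, 20.4, 27.9, 24.5 and 35.6 CPM with most Fasn, against 54.7, 74.5, 90.3, 75.5 and 65.9 CPM with least. Txnip, a glucose-responsive inhibitor of glucose uptake, measured 384, 171, 375, 376 and 337 CPM with most Fasn, against 509, 593, 1056, 1201 and 990.2 CPM with least. They differed by -1.39 and -1.38, with no library of 1 set inside the range of the other. Irs2 differed by -1.23 within day 2 and -0.97 within day 6, and Txnip by -1.74 within day 2 and -0.44 within day 6. Angptl4, a fasting-induced lipoprotein lipase inhibitor, had a difference of -0.83, opposite to its relative Angptl8. Of 15 glucocorticoid-responsive genes 2 were lower and 0 higher, with a median of -0.66 (-0.82 within day 2 and -0.39 within day 6), and the 2 were the metallothioneins Mt1 (-1.03) and Mt2.

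Insulin signalling and clock genes had medians near 0 over all 10 libraries. Of 23 insulin signalling genes 3 were non-overlapping and higher, Tbc1d1 (0.45), the kinase gene Akt2 (0.30) and Pdpk1 (0.28), beside 6.54% of all genes. The only one non-overlapping and lower was Irs2, beside 5.40% of all genes. Of the 23, 13 had a positive and 10 a negative difference, and the median was 0.03, or 0.08 within day 2 and 0.08 within day 6. Of 19 circadian genes 2 were non-overlapping and higher, the repressor gene Nfil3 (1.34) and Clock (0.43), and 12 had a negative difference. The median of the 19 was -0.10, or -0.45 within day 2 and -0.09 within day 6. The hour of collection is not given in the sources used here.

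Adipocyte genes were abundant in every library. Of 16 adipocyte identity genes 1 was non-overlapping and higher (Lpl) and 3 lower (Adipoq, Pnpla2 and Adrb3), beside 6.54% and 5.40% of all genes. The median difference of the 16 was -0.23, or -0.44 within day 2 and -0.22 within day 6. Their summed level was 51908 to 80807 CPM with most Fasn and 61073 to 93799 CPM with least. Adipoq, which encodes adiponectin, measured 1926, 1159.9, 3309.9, 2944 and 2069 CPM with most Fasn, against 4784, 3484, 3764, 4109 and 4415 CPM with least, a difference of -0.93, or -1.04 within day 2 and -0.53 within day 6. Of 13 genes that mark fat expansion 3 were non-overlapping and lower and 0 higher. The 3 were the Wnt inhibitor gene Sfrp5 (-1.86), the caveola gene Cavin1 (-0.29) and Angptl4. Yet 7 of the 13 had a positive difference, and the median was 0.10, or 0.07 within day 2 and 0.04 within day 6.

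Markers of other cells moved with the sets in part. In bulk tissue fewer cells of a type and less RNA per cell cannot be told apart. The counts of non-overlapping genes below stand beside 6.54% higher and 5.40% lower of all genes. Of 17 progenitor genes 15 had a negative difference and 1, Sfrp2 (-1.42), was non-overlapping, with a median of -0.56 and a summed level of 802 to 1048 CPM with most Fasn and 908 to 1849 CPM with least. The progenitor median was -0.21 within day 2 and -0.32 within day 6. All 17 mesothelial genes, which mark the layer covering the pad, had a negative difference, and the median was -0.67. Wt1 was the only one without overlap (-0.80), and within day 2 and day 6 the mesothelial median was -0.08 and 0.00. The summed mesothelial level was 487 to 1025 CPM with most Fasn and 638 to 1128 CPM with least. Of 21 macrophage markers other than Lpl, 17 had a negative difference with a median of -0.32 (-0.44 within day 2 and -0.21 within day 6), and Cd14 (-1.16) and Cd163 (-0.87) did not overlap. Endothelial markers had 0 non-overlapping genes of 20 and a median of -0.10, or -0.17 within day 2 and -0.31 within day 6. The lists for smooth muscle, T and NK cells, B cells, neutrophils and mast cells, skeletal muscle, erythroid cells and epididymal epithelium had at most 1 non-overlapping gene each. The summed level of the 21 macrophage markers was 1180.4 to 1779.9 CPM with most Fasn and 1403 to 2353 CPM with least, and that of the endothelial markers 1641 to 2721 and 1616 to 2434 CPM. Erythroid genes had a median of 0.16, but -0.80 within day 2 and -0.67 within day 6, and summed to 330 to 967 CPM with most Fasn and 289 to 806 CPM with least, and epididymal genes to 3.68 to 17.2 and 11.8 to 21.5 CPM. The epididymal marker Cuzd1 was at 0 in at least 1 library of each set. Their part in the differences between the sets was not tested.

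All 36 cell cycle genes had a positive difference, with a median of 0.74. Of the 36, 3 did not overlap (Mcm5 0.97, Tyms 0.73 and Pcna 0.42), beside 6.54% higher of all genes. Within day 2 the median was 0.48 and within day 6 it was 0.32. After each gene was centred on the mean of its day, the median difference was -0.04. The sum of the 36 ran from 238 to 1213 CPM with most Fasn (median 268) and from 192 to 296 CPM with least (median 217). Mcm5 measured 10.7, 36.5, 12.5, 9.97 and 10.8 CPM with most Fasn, so day 4 replicate 4 lay well above the rest of its set. All 19 immediate early genes, which respond to stress and handling, had a negative difference, with a median of -0.65. Within day 2 the median was -0.14, with 6 of 19 positive, and within day 6 it was -0.68. Their sum was 375 to 414 CPM with most Fasn, against 470 to 890 CPM with least, without overlap, and 483 to 545 CPM on chow. Jun (-0.95), Btg2 (-0.86) and Zfp36 (-0.78) did not overlap, and the part of handling in the other differences was not tested. Ribosomal protein genes had 2 non-overlapping genes of 45, beside 11.9% of all genes, and a median of 0.07.

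The remaining lists had 1 or 2 non-overlapping genes each, beside the 6.54% higher and 5.40% lower of all genes. Branched-chain amino acid genes had 0 higher and 1 lower of 20, the phosphatase gene Ppm1k (-0.95). Extracellular matrix genes had 1 higher of 34, the basement membrane gene Nid2 (0.79), and a median of -0.24. Pericyte and smooth muscle genes had 1 higher of 14, Cspg4 (0.96). Thermogenic genes had 1 higher of 11, the potassium channel gene Kcnk3 (0.76), and their median was 0.58, or -0.12 within day 2 and 0.59 within day 6. Chemokine genes had 1 higher, Ccl8 (1.11), and 1 lower, Ccl9 (-0.63), of 21, with a median of -0.31. Lysosome genes had 2 lower of 21, among them Ctsz (-0.53), chaperone and secretory genes 1 lower of 21, Pdia4 (-0.43), and heat shock genes 1 higher of 11, Dnaja1 (0.26).

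**Figure D4:**
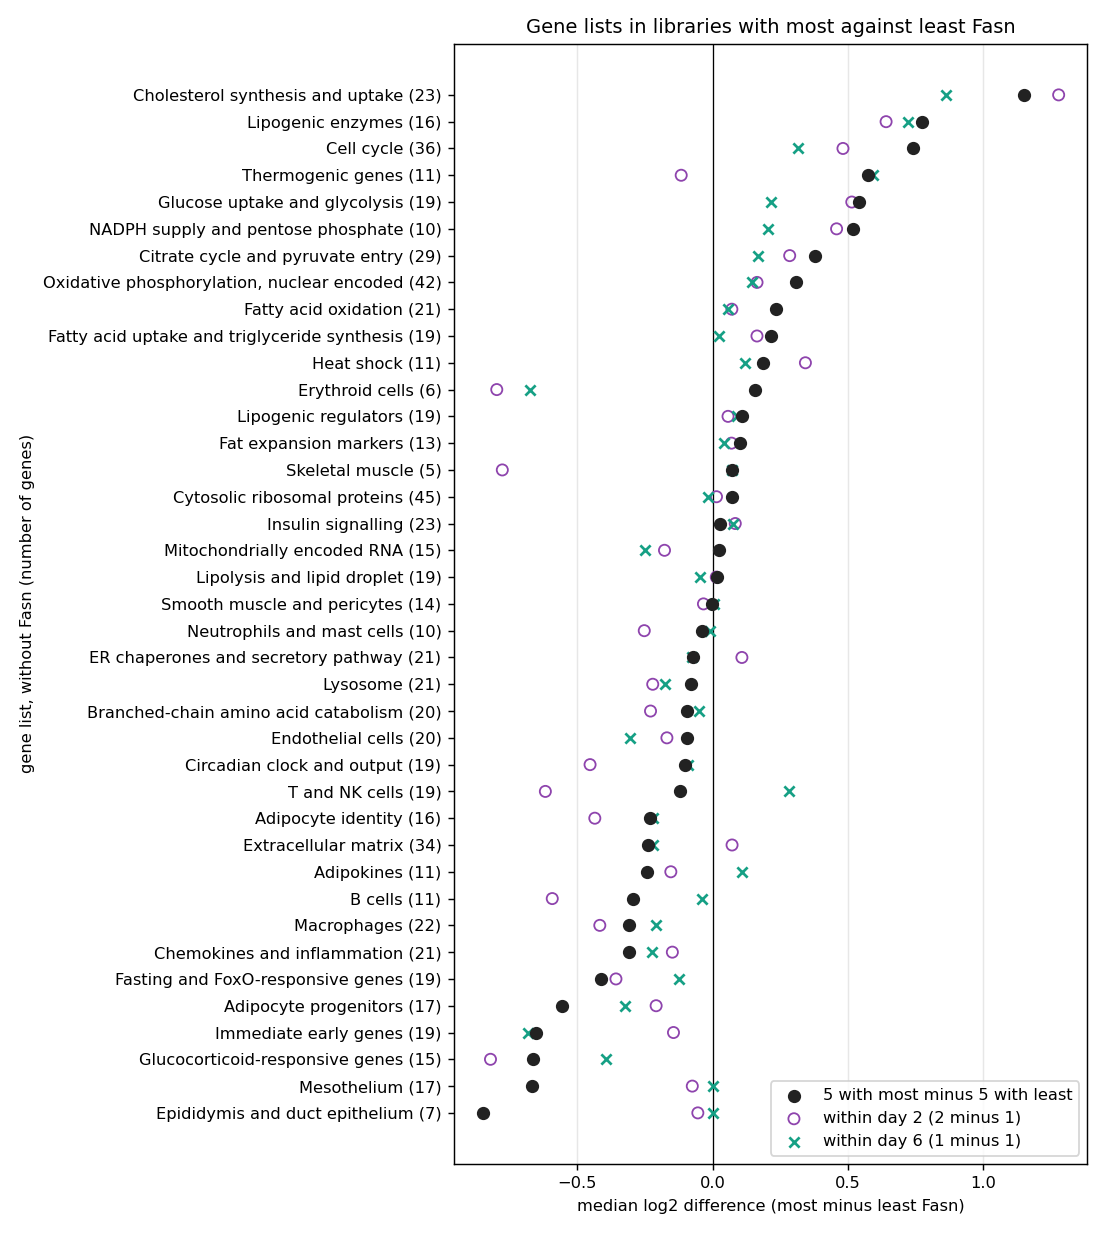
Median difference in log2 CPM, most Fasn minus least (horizontal axis), for each gene list (1 row each, Fasn left out, number of genes with enough counts in brackets); filled points use all 10 libraries, open circles day 2 and crosses day 6, and the vertical line is 0. Cholesterol genes (1.15) and lipogenic enzymes (0.77) lie farthest to the right, and epididymal (-0.85), mesothelial (-0.67), glucocorticoid-responsive (-0.66) and immediate early genes (-0.65) farthest to the left. The epididymal median rests on 7 genes, which had a median of -0.05 within day 2 and 0 within day 6.

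The 10 libraries outside both sets, 6 high-fat and 4 chow, allowed a test, since they entered neither set. In them each gene's slope on log2 Fasn CPM was fitted with diet as a second term. The fit has no term for day. The 6 middle libraries ran, from most Fasn to least, through days 4, 2, 4, 14, 6 and 6, so Fasn and the day cannot be told apart in full here either. Of 15253 genes 6 rose with Fasn (0.0393%) and 0 fell at an adjusted p under 0.05 by edgeR's quasi-likelihood test with Benjamini-Hochberg adjustment, and 1093 had an unadjusted p under 0.05. DESeq2 called 146 upward and 26 downward. Among the 6 were Tlcd2, Tmem79, Me1, Gpd1 and Sc5d, each at an adjusted p = 0.0350 in edgeR's quasi-likelihood test (Benjamini-Hochberg). Tlcd2, a membrane protein gene, changed by 1.32 ± 0.14 log2 units per doubling of Fasn (SE, n = 10). Tmem79 changed by 1.25 ± 0.15, the NADPH source Me1 by 1.08 ± 0.14, Gpd1 by 0.95 ± 0.12 and the sterol desaturase Sc5d by 0.84 ± 0.10. Of these 5, all but Tmem79 were also non-overlapping between the sets. Sc5d measured 326, 262, 244, 238, 242 and 166 CPM in the 6 middle libraries from most Fasn to least, and 204, 92.4, 101 and 111 CPM on chow. Me1 measured 1623, 1365, 1249, 902, 1024 and 648 CPM in the same 6, and 1632, 699.8, 667 and 814 CPM on chow. Day 6 replicate 1 was the lowest of the 6 for both genes.

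The number of calls in this fit rested on single libraries. It was 0 without day 6 replicate 1, which had least Fasn of the 10, and also 0 without chow replicate 1 or 2, day 4 replicate 2 or 3, day 6 replicate 4 or day 14 replicate 3. Leaving out day 2 replicate 3 gave 34 calls, chow replicate 3 gave 1 and chow replicate 4 gave 3. Chow replicate 4 stood apart by epididymal genes, which summed to 384 CPM there. In the 6 high-fat libraries alone there were 0 calls. The slopes of the called genes Me1 and Sc5d moved little over these fits, 1.01 to 1.20 for Me1 and 0.70 to 0.91 for Sc5d. Slopes of some genes that were not called changed sign between fits. Acly (1.31 ± 0.19) and Elovl6 (1.09 ± 0.16) stood at an adjusted p = 0.0698 in edgeR's quasi-likelihood test (Benjamini-Hochberg) and did not pass.

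The direction of the slopes can be set beside the sets as a description. Of the 996 genes that were higher without overlap, Fasn left out, 954 (95.8%) had a positive slope in the other 10 libraries, where 48.6% of all genes did. Of the 824 lower genes 765 (92.8%) had a negative slope, where 51.4% of all did. In the 6 middle high-fat libraries alone the shares were 93.3% and 88.8%, and without day 6 replicate 1 they were 88.1% and 79.9%. The cholesterol genes had a positive slope in 23 of 23 cases with a median of 0.81, and the lipogenic enzymes in 14 of 16 with a median of 0.64. Immediate early genes had a positive slope in 10 of 19, with a median of 0.01. Genes within a library are not independent, so these shares carry no p.

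**Figure D5:**
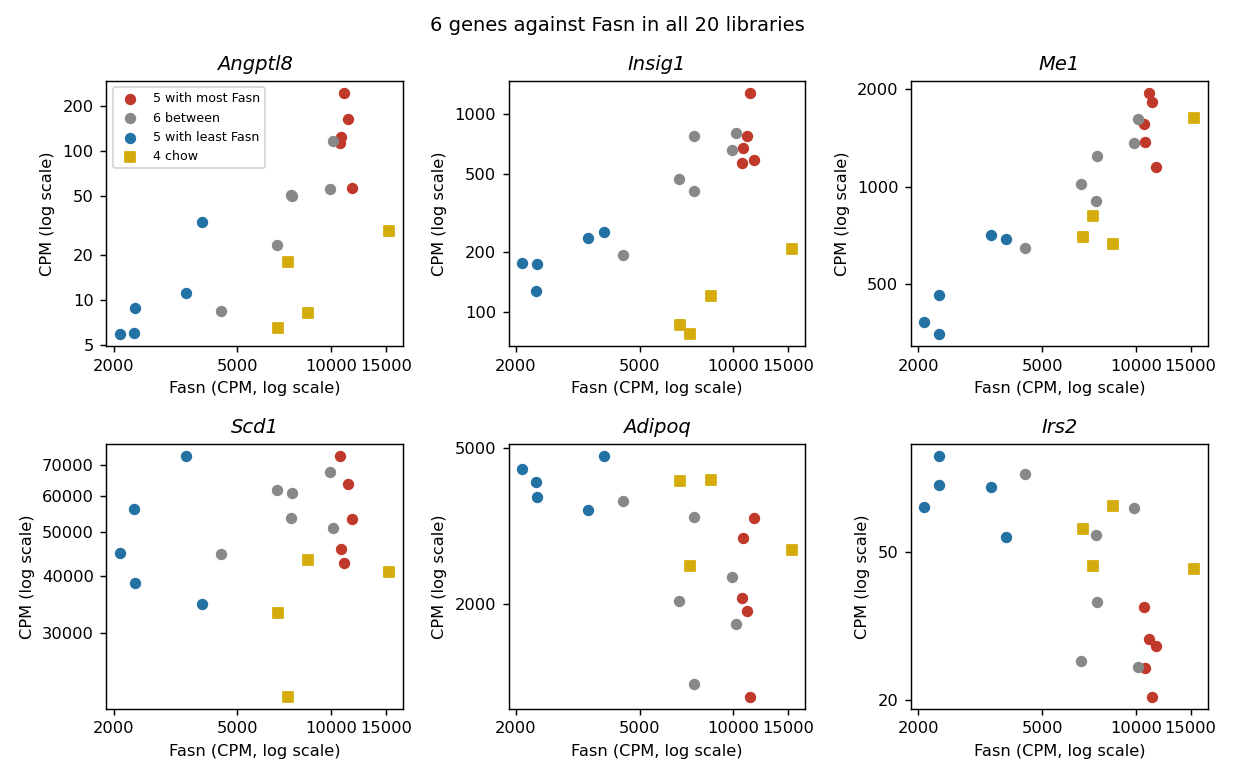
CPM of Angptl8, Insig1, Me1, Scd1, Adipoq and Irs2 against Fasn CPM (both axes log), with 1 point for each of the 20 libraries, marked as most Fasn, between, least Fasn and chow. Me1 runs upward with Fasn and Irs2 and Adipoq downward, Scd1 shows no such order, and the chow libraries lie below the high-fat libraries of like Fasn for Insig1 and Angptl8.

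The day label was tested apart from the ranking. Over the 16 high-fat libraries 0 of 15254 genes (0%) differed among days 2, 4, 6 and 14 at an adjusted p under 0.05 by edgeR's quasi-likelihood test with Benjamini-Hochberg adjustment, although 3218 had an unadjusted p under 0.05. DESeq2's likelihood-ratio test called 1133. Leaving out day 4 replicate 1 gave 1187 calls by edgeR, leaving out day 6 replicate 4 gave 448, and the other 14 omissions gave 0 to 7. Fasn itself averaged 8479 CPM on day 2, 9924 CPM on day 4, 6645 CPM on day 6 and 3825 CPM on day 14, at an adjusted p = 0.264 in edgeR's quasi-likelihood test (Benjamini-Hochberg). When values were centred on the mean of each day, 226 genes were non-overlapping between the same sets, against 1821 (11.9%) before centring. The day means include libraries of the sets, and the sets differ in their days. Centring therefore also removes part of a difference between the sets, so the smaller number does not say how much belongs to the day. Non-overlapping after centring were 2 of the 17 lipogenic enzymes, Fasn included, and 2 of the 23 cholesterol genes, beside 1.48% of all genes. The centred median difference was 0.46 for the other 16 lipogenic enzymes and 0.64 for the cholesterol genes, and the centred Fasn difference was 1.18.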

How the data were processed

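Per the labels' protocols, total RNA of epididymal fat was isolated with a column kit and sequenced from TruSeq RNA libraries. The authors deposited raw read counts for 39179 Ensembl gene IDs in 20 libraries. CASAVA, STAR, featureCounts and limma, with R 3.0, are named per the submitters' processing notes, without roles. Genome build, annotation and strand setting are not given in the sources used here, so reads of overlapping, antisense or near-identical genes cannot be told apart.

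Symbols were found for 37607 IDs (those without held 0.139% of counts). filterByExpr by group (minimum count 10, total 15) left 15254 genes, which held at least 99.5% of each library. Levels are CPM on TMM-adjusted totals, with a prior count of 2 for log2. In R 4.3.3, edgeR 4.0.16 (quasi-likelihood, robust) tested the slope on log2 Fasn CPM in 10 libraries (Fasn left out, 7 residual degrees of freedom, diet as a term) and any difference among the high-fat days in 16 libraries (12 residual degrees of freedom). Benjamini-Hochberg adjustment ran over all genes. Steps were tested on simulated counts. Alternatives were library size or RLE scaling, no filter, DESeq2 1.42.0, a replicate block, other rankings, other sizes of the sets and leaving out each library. Sets of 4 or 6, sets without day 4 and single days were added after seeing the data.

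The members and the 39 gene lists were chosen with earlier results of these data known. Named were Fasn, lipogenic enzymes and regulators, and the 10 largest non-overlapping differences each way with a mean of at least 5 CPM, clones passed over. Also named were the 5 genes most like Fasn by Spearman correlation, up to 4 non-overlapping members of each list (with none, up to 2 of highest level), and up to 6 called slopes in each direction. Some genes that meet this rule are not reported here. Promoters are RefSeq's.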

Additional observations from a re-analysis of the deposited data

Results flagged for a closer look

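Within the sets of 5, Dixon's test at the 95% level was applied to 72 groups of values. These were named genes, total counts and the share of mitochondrial RNA, each within 1 set. In 8 groups, all of them genes, 1 library lay far from the others. Chance alone gives about 1 in 20 for independent groups, but these groups share their libraries. With most Fasn, all 4 cases were day 4 replicate 4. Acaca was 821 CPM there, against 1237 to 1340 CPM in the other 4, and Acss2 was 934 CPM against 348 to 488 CPM. Ncan was 110.1 CPM against 20.8 to 30.5 CPM, and Bpifb6 was 20.2 CPM against 3.87 to 7.62 CPM. With least Fasn, day 6 replicate 2 stood apart in 3 cases. Angptl8 was 33.3 CPM there, against 5.94 to 11.2 CPM in the other 4, Hephl1 was 3.59 CPM against 1.13 to 1.40 CPM, and Smyd1 was 15.3 CPM against 4.68 to 7.38 CPM. The remaining case was Mt2 in day 14 replicate 2, with 114 CPM against 44.5 to 56.0 CPM.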

How the results depend on the processing

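The slope fit gave 6 calls, and 2 with library size only, 6 with RLE, 9 without the filter, 0 in the 6 middle libraries and 172 with DESeq2 (146 up, 26 down). Leaving out 1 library gave 0 to 34. The test among days gave 0 calls under the scalings, without the filter and with Fasn as a term, 1133 with DESeq2 and 0 to 1187 without 1 library. Same-numbered libraries' deviations correlated at -0.19 to 0.52. Differently numbered libraries were not compared, so this check cannot decide whether the numbers pair samples. A replicate block gave 0 slope calls and 301 day calls. Non-overlapping genes numbered 1821, and 1772 with library size only, 1828 with RLE, 1866 without the filter, 226 centred on days (165 shared), 1775 ranked by 5 other enzymes (964 shared) and 1871 ranked without day 2 replicate 1. Sets of 4 gave 3140, of 6 gave 1311, and without day 4 gave 2633; leaving out 1 library gave 1898 to 2996, since smaller sets overlap less by construction.

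Single slopes were followed over the fits only for called genes, lipogenic enzymes and cholesterol genes. Among these, slopes that changed sign, none past the threshold, were as follows, and the cause was not tested. In the 6 middle libraries Elovl5 was 0.14, Fads1 -0.21 and Pnpla3 -0.021, and with the replicate block Fads1 was -0.12. Without 1 library Elovl5 ranged from -0.12 to 0.15, Fads1 from -0.23 to 0.69, Acacb from -0.55 to 0.42 and Stard4 from -0.10 to 0.75. Day 2 replicate 1, with 1916829 counts, limits low genes most.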
